A study of Mus musculus with 16 samples.

Results

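Myh4, Actn3, Pvalb and Ckm are genes of fast muscle fibres, chosen by symbol from a table of whole tibialis anterior muscle, and they are 4 of the 831 genes in it. All 4 were found, through their Ensembl identifiers. The muscle came from mice at postnatal day 30, and 16 libraries form 4 groups of 4. The mdx/miR-133b-/- group is labelled mdx-/- and miR-133b-/- together, the mdx group mdx-/- alone, the miR-133b-/- group lacks the microRNA alone, and Control is labelled Wild Type. The mdx mouse carries a mutation of Dmd, the dystrophin gene, in every cell and models Duchenne muscular dystrophy. The sources used here give neither strain nor sex, nor how the alleles were made or in which cells miR-133b is lost. Dmd and the miR-133b locus were not analysed here, so the values do not check the genotypes.

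Fast glycolytic fibres contract quickly, relax quickly and tire soon. That work rests on several kinds of protein: a fast myosin motor, the Z disc that anchors the thin filaments, a soluble buffer that takes calcium away from the filaments, and enzymes that restore ATP. The mouse tibialis anterior is mostly made of such fibres. Myh4 encodes myosin heavy chain IIb, the fastest motor of mouse limb muscle. Actn3 encodes alpha-actinin-3, the actinin of the Z disc of fast fibres. Pvalb encodes parvalbumin, the calcium buffer, and Ckm encodes the muscle creatine kinase, which passes phosphate from phosphocreatine to ADP and is also made in slow fibres and heart.

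The microRNA removed in miR-133b-/- and mdx/miR-133b-/- mice comes from chromosome 1 (GRCm38.p6, plus strand, bases 20682834 to 20682855 for the 3p strand), and its mature form is shown because its seed, bases 2 to 8 in capitals, is the part that pairs with targets.
mmu-miR-133b-3p: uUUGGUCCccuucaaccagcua
The DNA letters complementary to that seed, GGACCAA, were present in 0 of the annotated 3' UTRs of the 4 genes, which are 65 to 1455 bases long. One match stood elsewhere in the Myh4 transcripts. A match or its absence describes these letters in these annotated transcripts and nothing else.

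The windows before the start sites of 3 of the 4 genes are shown because these genes moved together. They run from 250 bases before to 50 after the start in RefSeq on GRCm38.p6, in the direction of the gene, and Actn3 is named only. Capitals mark E boxes (CANNTG, a motif read by MyoD and its relatives) and matches to the MEF2 motif.
Myh4 (chr11:67237562-67237861, plus strand): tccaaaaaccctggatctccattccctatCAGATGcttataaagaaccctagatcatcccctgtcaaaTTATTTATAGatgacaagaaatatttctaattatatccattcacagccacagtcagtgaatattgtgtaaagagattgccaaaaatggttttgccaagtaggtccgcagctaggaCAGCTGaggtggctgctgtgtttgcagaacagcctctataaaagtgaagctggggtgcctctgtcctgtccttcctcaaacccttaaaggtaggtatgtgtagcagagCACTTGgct
Pvalb (chr15:78206351-78206650, minus strand): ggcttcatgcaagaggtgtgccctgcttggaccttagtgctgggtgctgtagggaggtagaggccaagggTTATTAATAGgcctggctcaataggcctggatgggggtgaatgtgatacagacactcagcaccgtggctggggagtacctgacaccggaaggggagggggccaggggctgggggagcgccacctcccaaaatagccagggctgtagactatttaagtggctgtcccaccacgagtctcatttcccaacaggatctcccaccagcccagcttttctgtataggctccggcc
Ckm (chr7:19410844-19411143, plus strand): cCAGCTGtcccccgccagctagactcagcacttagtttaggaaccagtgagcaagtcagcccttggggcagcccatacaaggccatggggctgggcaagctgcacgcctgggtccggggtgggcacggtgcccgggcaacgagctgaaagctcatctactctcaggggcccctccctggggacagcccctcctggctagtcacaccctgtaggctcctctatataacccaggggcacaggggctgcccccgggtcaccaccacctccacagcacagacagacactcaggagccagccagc
Counting the start base as 1, the Myh4 window held 3 E boxes, beginning at -221, -67 and 42, and 1 MEF2 match at -182. It also held a CArG box, the motif of serum response factor, at -104, and the letters TATAAA at -31 and -213, with a match on the other strand at -179 that overlaps the MEF2 match. The Pvalb window held 1 MEF2 match, at -180, and 0 E boxes. A second Pvalb start (chr15:78204188-78204487, minus strand, not printed) held 2 E boxes and 0 MEF2 matches, and the Ckm window held 1 E box, at -249. Among 32851 such windows of the reference, read on both strands, 72.3% held an E box, 3.19% a MEF2 match, 1.63% a CArG box and 13.6% TATAAA.

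Values are read counts per gene, each multiplied by a factor that the authors set per library, and are called scaled reads here. Reads in the genes of the table numbered 2356990 to 6000033 per library, and total depth is unknown. The 831 genes are a selection: each differed at least 1.72-fold between mdx/miR-133b-/- and miR-133b-/- in its group mean. That comparison therefore gives values with no test, and the others share libraries with it, except mdx against Control. Nothing in the labels ties a library to its own animal, and p-values reflect only how far these libraries spread, which may be technical. In whole muscle, fewer fast fibres and less of an RNA per fibre cannot be told apart.

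Per kilobase of exon, the level of the 4 genes was high. Over the 16 libraries Pvalb averaged 52123 scaled reads per kb, Myh4 50009, Ckm 30340 and Actn3 20211. Among 822 nuclear genes of the table they ranked 1, 2, 3 and 5, in that order, with Aldoa, the glycolytic aldolase, between Ckm and Actn3. In every library Ckm stood above Actn3 and both stood below Pvalb and Myh4. Pvalb and Myh4 changed places, with Pvalb first in 11 libraries and Myh4 first in 5. In Control, Pvalb had 63362 ± 7478 and Myh4 65267 ± 7842 scaled reads per kb (SD, n = 4), a difference within their spread.

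Together the 4 genes took 17.4% to 20.5% of the table's reads in mdx/miR-133b-/- libraries, 21.5% to 28.8% in mdx, 16.3% to 25.4% in miR-133b-/- and 23.7% to 25.9% in Control. Mitochondrially encoded genes took 22.4% to 34.3%, 23.0% to 27.3%, 30.4% to 39.2% and 30.2% to 37.7% of the reads in the groups in the same order. Of nuclear reads alone, the 4 genes took 24.8% to 28.8% in mdx/miR-133b-/-, 29.6% to 37.4% in mdx, 24.6% to 36.5% in miR-133b-/- and 36.3% to 38% in Control. On that measure the mdx/miR-133b-/- libraries lay wholly below the mdx libraries, and the mdx libraries overlapped Control at their upper end.

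**Figure D1:**
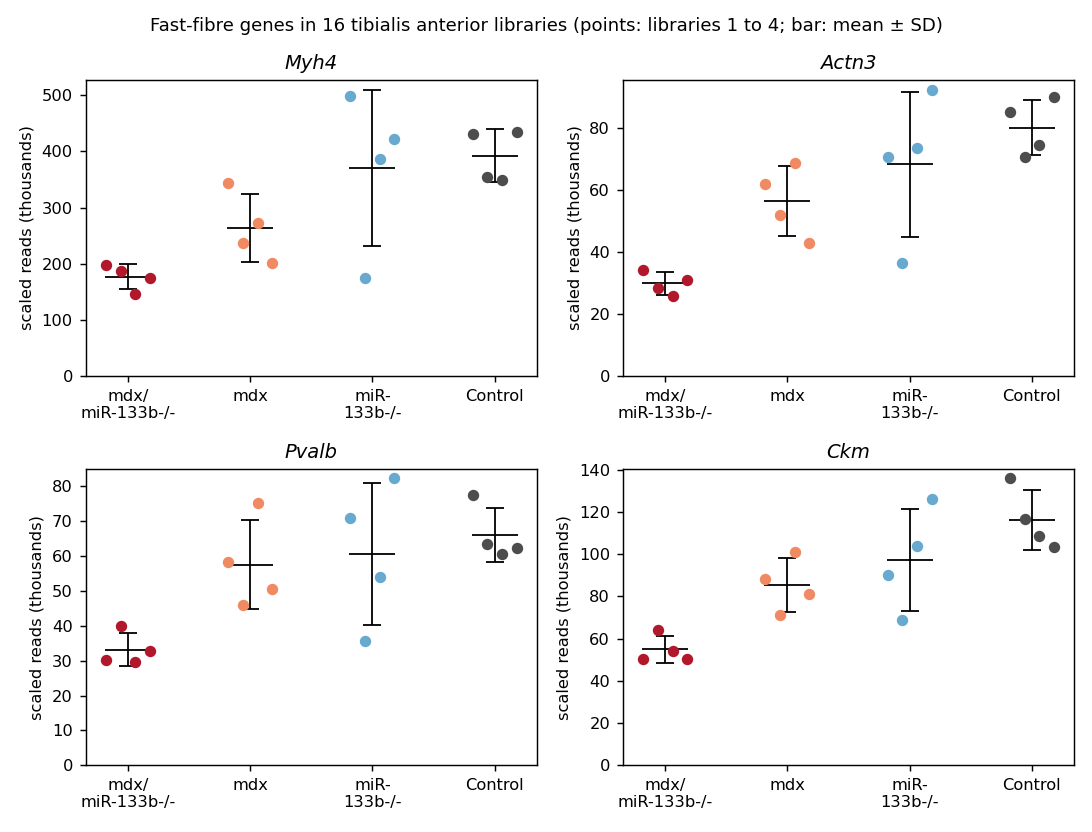
Scaled reads of Myh4, Actn3, Pvalb and Ckm in each of the 16 libraries, with a panel per gene, a point per library, and the mean and SD of each group of 4. The 4 mdx/miR-133b-/- points lie below all mdx and Control points in every panel, and miR-133b-/- library 2 lies lowest of its group.

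Myh4 (ENSMUSG00000057003, GRCm38 chr11:67238029-67260446, plus strand) is the motor gene. It had 198202, 187708, 146677 and 173865 scaled reads in mdx/miR-133b-/- libraries 1 to 4. It had 343884, 236969, 272803 and 200838 in mdx libraries. It had 498803, 173999, 386818 and 422547 in miR-133b-/- libraries and 431637, 355071, 348669 and 435211 in Control libraries. All mdx/miR-133b-/- values lay below all mdx values, and all mdx values below all Control values, whereas miR-133b-/- held both the highest Myh4 value of the study and one below 2 of the 4 mdx/miR-133b-/- values. Reads of near-identical fast myosin genes may be split among copies, so the level of Myh4 is uncertain to that extent.

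Actn3 (ENSMUSG00000006457, chr19:4861216-4877909, minus strand) is the Z disc gene. It had 34324, 28518, 25765 and 30820 scaled reads in mdx/miR-133b-/- libraries 1 to 4. It had 61920, 51899, 68593 and 42981 in mdx libraries. It had 70687, 36389, 73679 and 92213 in miR-133b-/- libraries and 85145, 70760, 74522 and 89900 in Control libraries. The order of the groups was as for Myh4: mdx/miR-133b-/- lay wholly below mdx, and mdx wholly below Control. Here all 4 miR-133b-/- values, library 2 included, also lay above those of mdx/miR-133b-/-.

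Pvalb (ENSMUSG00000005716, chr15:78191114-78206400, minus strand) is the calcium buffer gene. It had 30135, 39819, 29628 and 32645 scaled reads in mdx/miR-133b-/- libraries 1 to 4. It had 58323, 45883, 74990 and 50560 in mdx libraries. It had 70800, 35604, 53844 and 82094 in miR-133b-/- libraries and 77501, 63432, 60572 and 62334 in Control libraries. The mdx/miR-133b-/- values lay wholly below the mdx and Control values, but mdx library 3 lay above 3 of the 4 Control libraries, so mdx and Control overlapped.

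Ckm (ENSMUSG00000030399, chr7:19404776-19422841, plus strand) is the energy gene. It had 50465, 64288, 54242 and 50387 scaled reads in mdx/miR-133b-/- libraries 1 to 4. It had 88297, 71140, 101086 and 80976 in mdx libraries. It had 90143, 68876, 103931 and 126005 in miR-133b-/- libraries and 135826, 116597, 108530 and 103314 in Control libraries. The mdx/miR-133b-/- values again lay below all others, and the mdx values below all Control values, the nearest pair being mdx library 3 and Control library 4. An antisense gene, A930016O22Rik, overlaps Ckm, and the sources used here do not say whether counting used strand.

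Loss of dystrophin with miR-133b present was read from mdx against Control. Myh4 and Ckm fell, Actn3 lay just outside the threshold, and Pvalb did not pass. Myh4 averaged 263623 ± 61042 scaled reads in mdx and 392647 ± 47180 in Control (SD, n = 4 each). Its log2 fold change was -0.60 (SE 0.26, 95% interval -1.13 to -0.06), with an adjusted p of 0.0472 in limma's test over all 831 genes. Ckm averaged 85375 ± 12615 in mdx and 116067 ± 14261 in Control, a log2 fold change of -0.45 (SE 0.19, -0.84 to -0.06, adjusted p = 0.0409 in limma). These are levels 1.51-fold lower for Myh4 and 1.36-fold lower for Ckm. Unadjusted, limma's p was 0.0311 for Myh4 and 0.0264 for Ckm. The adjustment ran over this selected table, where 550 of 831 genes were called, and not over all genes measured.

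Actn3 averaged 56348 ± 11247 scaled reads in mdx and 80082 ± 8941 in Control. Its log2 fold change of -0.52 (SE 0.23, -1.0 to -0.04) had an adjusted p of 0.0514 in limma's test, although its groups did not overlap. Pvalb averaged 57439 ± 12776 in mdx and 65960 ± 7784 in Control, a log2 fold change of -0.22 with an interval of -0.68 to 0.25 (adjusted p = 0.383). A fall of Pvalb as large as those of Myh4 and Ckm lies inside that interval.

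In this comparison 2 of the 4 genes were called lower, against 21.7% of the table, and 3 of the 4 had mdx values wholly below Control, against 24.2% of the table. The median log2 fold change was -0.48 over the 4 genes and 0.44 over all 831, but -0.56 over the 333 genes that were lower in mdx/miR-133b-/- than in miR-133b-/-, among which the 4 stand. The shares are of the whole table, where 498 genes were higher in that comparison. The shares among the 333 were not counted, so the counts do not show that the 4 exceed them. In the fit of all 16 libraries the calls lay close to the threshold. That of Myh4 was kept without mdx library 1 and lost on leaving out any other mdx or Control library (log2 fold changes over all 8 omissions from -0.73 to -0.47, adjusted p from 0.0267 to 0.141). The call of Ckm was kept without mdx library 3 or Control library 4 and lost in the other 6 cases (-0.53 to -0.36, adjusted p from 0.0294 to 0.130). Actn3 was called without mdx library 3 (-0.62, 0.0360). With each library's GC and length trend removed the call of Ckm was lost (-0.35, 0.0695), Pvalb turned to 0.053 (0.797) and Myh4 stayed called (-0.68, 0.0359). Factors that centre each library on its median gene moved the median of all genes to 0.09 and the split of calls from 370 higher and 180 lower to 259 and 270. With those factors the 4 genes stood lower still, between -0.95 for Myh4 and -0.58 for Pvalb. A fit of the mdx and Control libraries only left the log2 fold changes as they were and called 646 genes. Adjusted p in limma was then 0.00756 for Myh4, 0.00937 for Actn3, 0.0124 for Ckm and 0.221 for Pvalb.

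Loss of miR-133b in dystrophic muscle was read from mdx/miR-133b-/- against mdx. Actn3, Pvalb and Ckm fell, and Myh4 was lower without passing. Actn3 had the largest difference of the 4, with an interval that overlaps the others. It averaged 29857 ± 3625 scaled reads in mdx/miR-133b-/- against 56348 ± 11247 in mdx, a level 1.87-fold lower. Its log2 fold change was -0.90 (SE 0.23, -1.38 to -0.42, adjusted p = 0.0155 in limma). Pvalb averaged 33057 ± 4697 in mdx/miR-133b-/- and 57439 ± 12776 in mdx, and its log2 fold change was -0.78 (SE 0.22, -1.25 to -0.32, adjusted p = 0.0240). Ckm averaged 54846 ± 6547 in mdx/miR-133b-/- and 85375 ± 12615 in mdx, with a log2 fold change of -0.63 (SE 0.19, -1.02 to -0.25, adjusted p = 0.0270).

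Myh4 averaged 176613 ± 22308 scaled reads in mdx/miR-133b-/- and 263623 ± 61042 in mdx. The log2 fold change was -0.56 with an interval of -1.09 to -0.02, and its adjusted p in limma's test was 0.138. In all, 3 of the 4 genes were called lower, against 12.0% of the table, and all 4 had mdx/miR-133b-/- values wholly below mdx, against 16.2%. The median log2 fold change was -0.71 over the 4 genes, -0.04 over the 831 and -0.38 over those 333. The table's genes were chosen partly on the mdx/miR-133b-/- libraries, so these shares do not describe genes at large. Here too the shares are of the whole table, and those among the 333 were not counted.

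The calls of this comparison moved with single libraries. Actn3 was no longer called without mdx library 3 (-0.80, adjusted p = 0.0600). Pvalb lost its call without mdx/miR-133b-/- library 3 (0.0639) or 4 (0.0650) or mdx library 1 (0.0619) or 3 (0.0906). Ckm lost it without mdx/miR-133b-/- library 3 (0.0608) or 4 (0.0846) or mdx library 1 (0.0697), 3 (0.0906) or 4 (0.050), these figures all being adjusted p-values from limma. Over these omissions the log2 fold change kept its sign, from -1.02 to -0.80 for Actn3, -0.88 to -0.65 for Pvalb and -0.72 to -0.55 for Ckm.

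Libraries also differed in how their values followed the GC content of genes. Each gene's log2 value, less its mean over the 16 libraries, was fitted on GC content and log2 transcript length. The slope on GC, per 10 points, was -0.06, -0.20, -0.45 and -0.49 in mdx/miR-133b-/- libraries 1 to 4. It was 0.12, 0.00, 0.13 and 0.02 in mdx libraries, so these groups did not overlap. It was -0.28 to 0.24 in miR-133b-/- libraries and 0.09 to 0.26 in Control libraries. The 4 genes have GC contents of 49.3% (Pvalb), 52.8% (Myh4), 54.0% (Ckm) and 56.9% (Actn3), and the median of the table is 49.1%. Their longest transcripts have 977 (Pvalb), 6016 (Myh4), 2742 (Ckm) and 2887 (Actn3) bases. The trends on GC and on length were removed together, and the part of each was not separated. With each library's trend on GC and length removed, none of the 4 was called: the log2 fold change was -0.58 for Myh4 (adjusted p = 0.206), -0.58 for Actn3 (0.0954), -0.46 for Pvalb (0.113) and -0.41 for Ckm (0.131). Without mdx/miR-133b-/- libraries 3 and 4, a choice made after seeing these slopes, they were -0.42 (0.558), -0.83 (0.172), -0.70 (0.232) and -0.57 (0.247) in the same order. The cause of the slopes was not tested.

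**Figure D2:**
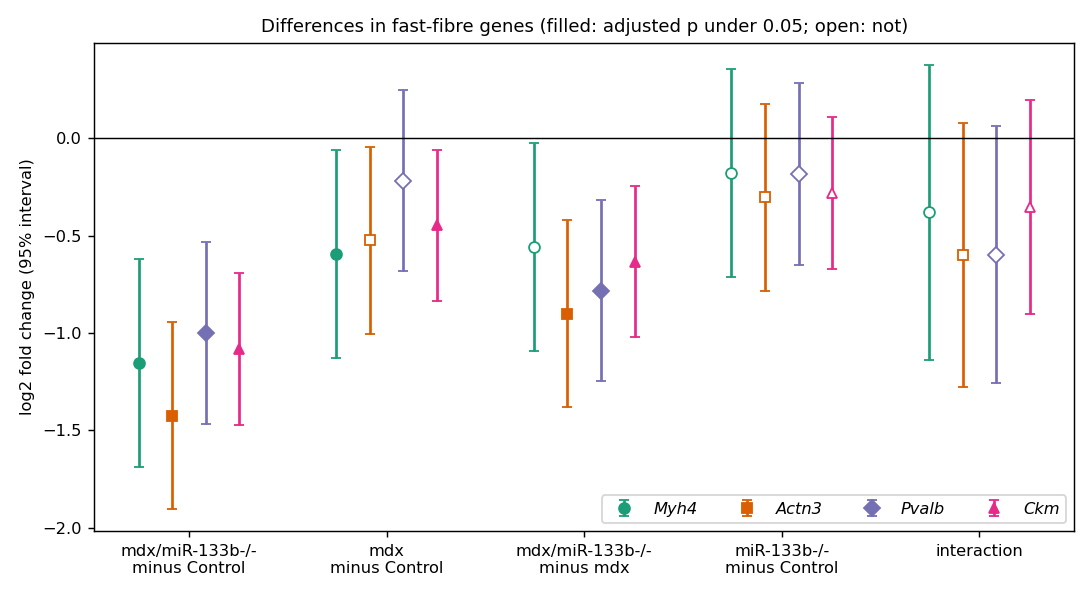
Log2 fold change of each of the 4 genes with its 95% interval for the 4 comparisons with a test and for the difference of differences (interaction), from limma on log2(scaled reads + 1). Filled points passed an adjusted p of 0.05 and open points did not. The points of mdx/miR-133b-/- against Control lie between -1.42 and -1.0, and the intervals of miR-133b-/- against Control all include 0.

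What losing miR-133b does where dystrophin is present was read from miR-133b-/- against Control, and none of the 4 genes passed. Myh4 averaged 370542 ± 139104 scaled reads in miR-133b-/- and 392647 ± 47180 in Control (SD, n = 4 each), Actn3 68242 ± 23272 and 80082 ± 8941, Pvalb 60586 ± 20302 and 65960 ± 7784, and Ckm 97239 ± 23994 and 116067 ± 14261. The log2 fold changes were -0.18 for Myh4 (interval -0.71 to 0.36), -0.30 for Actn3 (-0.78 to 0.18), -0.18 for Pvalb (-0.65 to 0.28) and -0.28 for Ckm (-0.67 to 0.11), with adjusted p-values of 0.699 to 0.847 in limma. The intervals hold changes of the size seen in mdx against Control, so the test does not show that the groups are alike. limma called 0% of the table lower and 0 genes in all, with 84 at an unadjusted p under 0.05, and limma-voom on the reads also called 0.

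The differences depended on 1 library, without which those of Myh4 and Pvalb changed sign and those of Actn3 and Ckm shrank. In miR-133b-/- library 2 all 4 genes were the lowest of their group: on the log2 scale Myh4 lay 0.99 below the group mean, Actn3 0.83, Pvalb 0.70 and Ckm 0.46. Its 7 regenerating fibre genes summed to 3140 scaled reads, against 787.9 to 1340 in the other miR-133b-/- libraries, while its 9 macrophage genes, at 1435, lay within the group's range of 886 to 2386. Without this library the log2 fold changes were 0.15 for Myh4, -0.03 for Actn3, 0.049 for Pvalb and -0.13 for Ckm. In Control library 2 the same 7 regenerating fibre genes summed to 3635 scaled reads. Its 4 fast fibre genes summed to 605859, within the Control range of 592292 to 730110. The part of regenerating fibres in the values of miR-133b-/- library 2 was not tested.

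**Figure D3:**
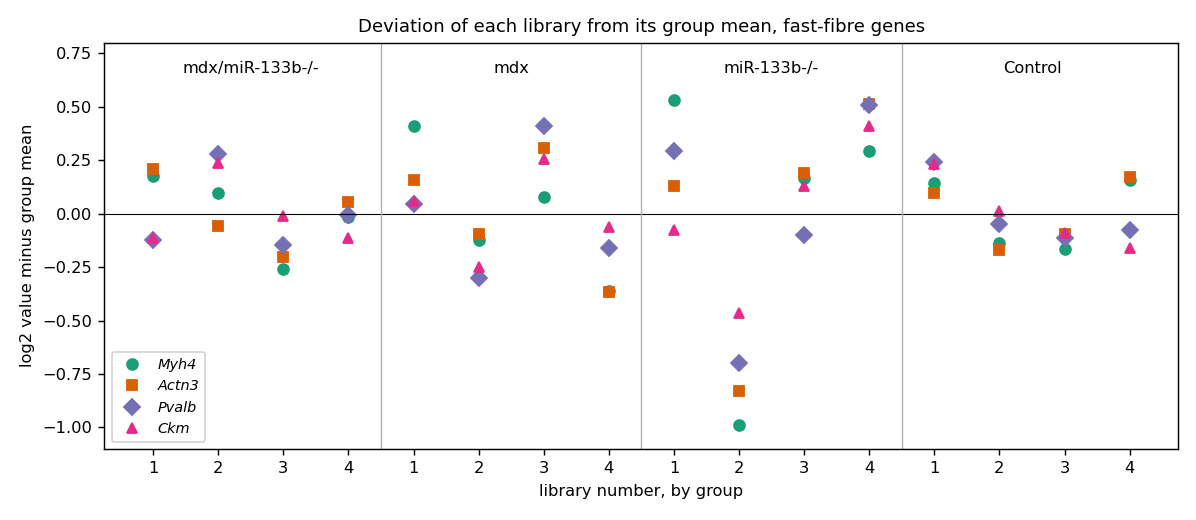
Deviation of each gene from the mean of its own group, on the log2 scale, in each of the 16 libraries. The 4 genes of miR-133b-/- library 2 lie between -0.99 and -0.46.

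Whether the effect of losing miR-133b differed between mdx muscle and muscle with dystrophin was tested directly as a difference of differences: mdx/miR-133b-/- minus mdx, less miR-133b-/- minus Control. None of the 4 genes passed, and the test called 0.842% of the table lower. The difference contains mdx/miR-133b-/- minus miR-133b-/-, the comparison that chose the table. Its median was -0.49 over the 4 genes and 0.02 over the whole table. Over the 333 genes that were lower in mdx/miR-133b-/- than in miR-133b-/- it was -0.47. Negative values here therefore do not set the 4 genes apart from those 333. The difference was -0.60 for Actn3 (SE 0.32, adjusted p = 0.292 in limma), -0.60 for Pvalb (SE 0.32, 0.280), -0.38 for Myh4 (0.573) and -0.35 for Ckm (0.462). Without miR-133b-/- library 2, Actn3 (-0.88, 0.0337) and Pvalb (-0.83, 0.0430) were called, and the calls over the table went from 8 to 110. These calls too were made in a table chosen on part of the difference. Once the trends on GC and length were taken out the difference was -0.38 for Actn3 (0.551) and -0.18 for Pvalb (0.761).

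Both changes together, mdx/miR-133b-/- against Control, gave the lowest levels. All 4 genes fell, and no mdx/miR-133b-/- value reached any Control value. Actn3 averaged 29857 ± 3625 scaled reads in mdx/miR-133b-/- and 80082 ± 8941 in Control, a level 2.68-fold lower (log2 fold change -1.42, SE 0.23, adjusted p = 4.41e-05 in limma). Myh4 was 2.23-fold lower (-1.15, SE 0.26, adjusted p = 0.000532), Ckm 2.12-fold lower (-1.08, SE 0.19, 7.68e-05) and Pvalb 2.0-fold lower (-1.0, SE 0.22, 0.000554). The table itself moved a great deal here: 36.9% of it was called lower and 33.5% had mdx/miR-133b-/- values wholly below Control, and the median log2 fold change was -1.12 over the 4 genes, 0.73 over the 831 and -0.96 over the 333. The shares are again of the whole table, and those among the 333 were not counted. Each of the 4 calls was kept on leaving out any 1 library. The GC slopes given above for mdx/miR-133b-/- also lay wholly below those of Control, and once the trends on GC and length were taken out the log2 fold changes were -0.98 for Actn3, -1.26 for Myh4, -0.76 for Ckm and -0.41 for Pvalb, all still called (adjusted p of Pvalb 0.0378 in limma). This comparison and the ones above share libraries, and their values stand side by side without a test between them.

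Against miR-133b-/-, where the table was chosen, the ratio of means put Myh4 2.10-fold, Actn3 2.29-fold, Pvalb 1.83-fold and Ckm 1.77-fold lower in mdx/miR-133b-/-. Pvalb and Ckm lay close to the 1.72-fold edge of the selection, ranking 120 and 40 of 831 from the smallest difference.

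**Figure D4:**
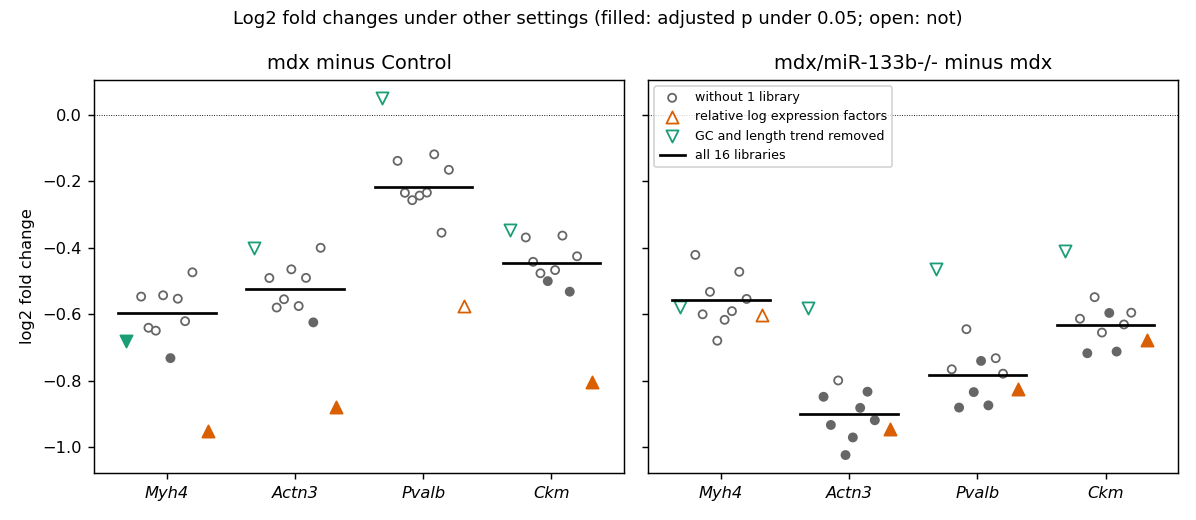
Log2 fold change of the 4 genes in mdx against Control (left) and mdx/miR-133b-/- against mdx (right). Lines give all 16 libraries, circles leave out 1 library, and triangles use relative log expression factors or remove the GC and length trend, filled where the adjusted p was under 0.05. In mdx/miR-133b-/- against mdx every point lies below 0.

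Ratios of 2 of the genes within a library do not depend on the scaling factor, and all 6 pairs were computed as a description. The ratio of Myh4 to Actn3 was 5.64 to 6.58 in mdx/miR-133b-/- libraries, 3.98 to 5.55 in mdx, 4.58 to 7.06 in miR-133b-/- and 4.68 to 5.07 in Control. The mdx/miR-133b-/- libraries lay wholly above mdx and Control, so Actn3 was lower relative to Myh4 there. This moved when the trends on GC and length were removed together. The log2 fold changes of Myh4 and Actn3 were then both -0.58 against mdx. Against Control they were -1.26 and -0.98, the order turned round. The parts of GC and of length were not separated. The ratio of Pvalb to Ckm was 0.546 to 0.648 in mdx/miR-133b-/-, 0.624 to 0.742 in mdx, 0.517 to 0.785 in miR-133b-/- and 0.544 to 0.603 in Control. Here the mdx libraries lay wholly above Control, so Pvalb was higher relative to Ckm. The ratio of Myh4 to Ckm overlapped between all groups, at 2.70 to 3.93 in mdx/miR-133b-/-, 2.48 to 3.89 in mdx, 2.53 to 5.53 in miR-133b-/- and 3.05 to 4.21 in Control. So did the ratios of Myh4 to Pvalb, Actn3 to Pvalb and Actn3 to Ckm. How often ratios of other genes separate groups was not counted.

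**Figure D5:**
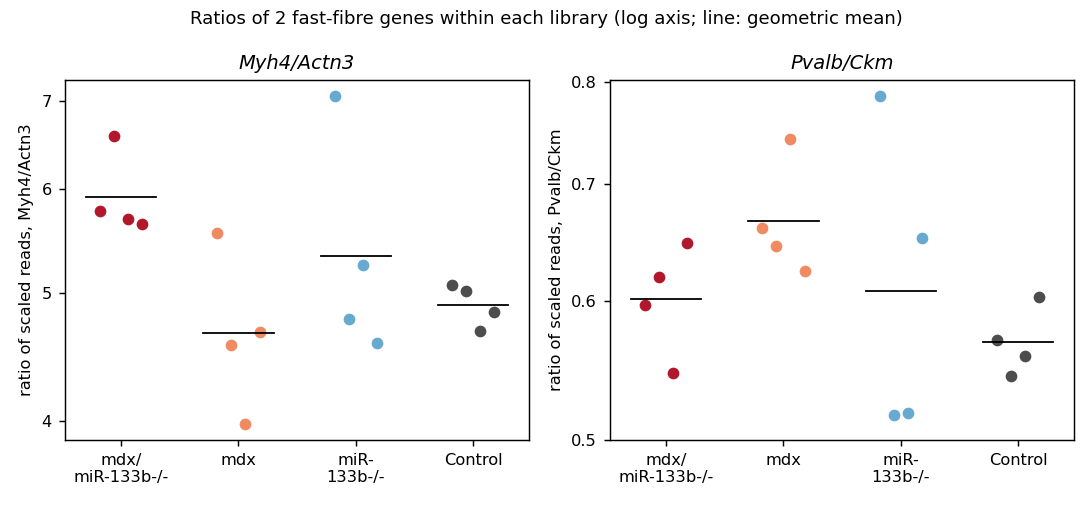
Ratio of Myh4 to Actn3 and of Pvalb to Ckm in every library, by group, on a log axis with a line at each geometric mean. In the panel of Myh4 to Actn3 the mdx/miR-133b-/- points lie above all mdx and Control points.

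Deviations from group means were correlated among the 4 genes. The largest deviation of each gene was that of miR-133b-/- library 2 (-0.99 for Myh4, -0.83 for Actn3, -0.70 for Pvalb and -0.46 for Ckm). The correlations were not recomputed without that library. After subtracting each group's mean, Pearson's r over the 16 libraries, which share reads and scaling, was 0.89 between Myh4 and Actn3, 0.88 between Pvalb and Ckm, and 0.59, the lowest of the 6 pairs, between Myh4 and Ckm. Leaving out the 4 genes themselves, some of which were closer to each other, the genes of the table most like each of them over the 16 libraries were Uaca (r = 0.94), Bola3 and Idh3b for Myh4, Npr2 (0.97), Map2k3 and Snapin for Actn3, Ndufb11 (0.92), Snapin and Ndufb5 for Pvalb, and Bckdk (0.97), Sord and Egflam for Ckm. With group means subtracted and the 4 again left out, Uaca (0.91) stayed the nearest to Myh4 and Bckdk (0.89) the nearest to Ckm, Map2k3 (0.93) was nearest to Actn3, and mt-Nd4 (0.92), a mitochondrially encoded subunit of complex I, was nearest to Pvalb.

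Other genes of the same machinery were few in the table. Of a list of 16 fast fibre genes only the 4 were in it, and of 14 regulators of fast fibres none was. Genes outside this selected table cannot be read here, so the 4 do not stand for fast fibre genes at large. Of 12 calcium release and uptake genes, Pvalb and Ryr1, the calcium release channel, were present. Ryr1 fell in mdx against Control (-0.71 on the log2 scale, adjusted p = 0.00329), stood at -0.26 in mdx/miR-133b-/- against mdx (0.359) and fell in mdx/miR-133b-/- against Control (-0.97, 0.000184). Of 8 phosphagen and adenylate enzymes only Ckm was present.

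Of 16 Z disc genes, Tcap (telethonin) and Myot (myotilin) stood beside Actn3. Neither passed in mdx against Control (-0.63 and -0.41, adjusted p = 0.0858 and 0.0941) or in mdx/miR-133b-/- against mdx (-0.24 and -0.28, 0.649 and 0.392), and both fell in mdx/miR-133b-/- against Control (-0.87 and -0.68, 0.0151 and 0.00571). Of 18 glycogen and glycolysis genes 3 were present. Hk2, a hexokinase (-0.87, 0.00375), and Aldoa (-0.52, 0.0310) fell in mdx against Control and Pfkm, muscle phosphofructokinase, stood at -0.24 (0.252). None of the 3 passed in mdx/miR-133b-/- against mdx, and all 3 fell in mdx/miR-133b-/- against Control.

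Genes of other fibres and cells moved with mdx too. In mdx against Control 7 of 7 regenerating fibre genes rose, with Myh3, the embryonic myosin, at 5.54 on the log2 scale, as did 4 of 5 slow fibre genes, 8 of 9 macrophage genes, 5 of 5 fibroblast and matrix genes, 5 of 6 neuromuscular junction genes and 2 of 2 tendon genes. In all, 44.5% of the table was called higher, and the table favours genes that differ with the mdx mutation. Flt1, the 1 endothelial gene, fell by 0.75. Summed macrophage levels were 5513 to 8345 scaled reads in mdx and 1407 to 1907 in Control, and summed regenerating fibre levels 8558 to 11794 and 1215 to 3635. The part of these cells and fibres in the lower Myh4 and Ckm of mdx was not tested.

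In mdx/miR-133b-/- against mdx none of those regenerating, macrophage, matrix, endothelial, junction or tendon genes passed, where 7.46% of the table was called higher and 12.0% lower. Summed macrophage levels were 3393 to 10944 scaled reads in mdx/miR-133b-/- and 5513 to 8345 in mdx, regenerating fibre levels 7306 to 14935 and 8558 to 11794, and fibroblast and matrix levels 26810 to 51223 and 38930 to 40729, each overlapping. Of 5 slow fibre genes Mb, the myoglobin of oxidative fibres, fell (-1.07, adjusted p = 0.0186 in limma) and the other 4 did not pass. No satellite cell marker of 4 was in the table.

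In mdx/miR-133b-/- against Control, where all 4 fast fibre genes fell, 9 of 9 macrophage genes, 5 of 5 fibroblast and matrix genes, 6 of 7 regenerating fibre genes, 4 of 5 slow fibre genes, 5 of 6 junction genes and 2 of 2 tendon genes rose, against 54.3% of the table called higher. Mb, the remaining slow fibre gene, fell by 1.70 on the log2 scale. Summed macrophage levels were 3393 to 10944 scaled reads in mdx/miR-133b-/- and 1407 to 1907 in Control, and summed regenerating fibre levels 7306 to 14935 and 1215 to 3635. Their part in the lower fast fibre genes was not tested.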

How the data were processed

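RNA of whole tibialis anterior was sequenced in 16 libraries. HISAT2, HTSeq and GRCm38 are named, per the submitters' processing notes, for the alignment and counting, with no versions. The deposited table holds 1 signal value per gene and library, a read count times 1 factor per library set by the authors (0.459 to 1): dividing by it gave a whole number, to within 0.001, for 100% of the values. Groups follow the sample titles, because the description field names another sample's code for 14 of 16. Replicate libraries were compared in 24 pairs, and the lowest chi-square per degree of freedom was 38.4, so none looked counted again.

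Log2(value + 1) was fitted with limma 3.58.1 in R 4.3.3, with 1 mean per group over the 16 libraries, a variance trend, and p-values adjusted over 831 genes by Benjamini-Hochberg, at 0.05, with no filter. Folds in the comparisons with a test are powers of 2 of these log2 values. The procedure was tested on simulated data in which 200 of 831 genes differed between mdx and Control. It recovered 5.2% of changes at 1.25-fold, 30% at 1.5-fold, 68.4% at 2-fold and 94% at 3-fold. Of its calls, 4.07% were false. Symbols and coordinates are from GENCODE M21 on GRCm38, and sequences from RefSeq on GRCm38.p6. Besides the 4 genes, the text names the 3 others most correlated with each, members of lists with 1 to 4 genes in the table (the tendon genes are only counted), and up to 2 genes of longer lists with the smallest p. Mb was named after its values were seen. The 4 genes and the lists were chosen with earlier results of these data known. Alternatives covered scaling, pseudocount, variance trend, minimum mean, replicate block, GC and length trend, limma-voom on the reads, the compared libraries only and each library left out.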

Additional observations from a re-analysis of the deposited data

Results flagged for a closer look

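The highest Control value of Pvalb, 77501 scaled reads in Control library 1, stood apart from the other 3, which lay between 60572 and 63432. Its gap to the next value was 0.831 of the group's range, just past the 95% critical value of Dixon's test. The 4 genes gave 16 groups to test, and chance marks about 1 group in 20. Without Control library 1 Pvalb was still not called in mdx against Control.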

How the results depend on the processing

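Of the values recomputed under the alternatives, 461 kept direction and side of the threshold, 39 lost a call, 8 gained one, 4 changed sign and 13 counts moved by more than 1.5 times. The planned count model on whole reads was not run, and limma-voom on the recovered reads, added after seeing the data, stood in for it and changed no call of the 4 genes. In mdx against Control, Actn3 passed with relative log expression factors (-0.88), upper quartile factors (-0.59), the replicate block (-0.52, adjusted p = 0.0490) and the compared groups only (-0.52, 0.00937). Myh4 did not pass without a variance trend (-0.60, 0.0639) or at a minimum mean of 100 (-0.60, 0.0522). Ckm did not pass without the trend (-0.45, 0.0561), with the block (-0.45, 0.0604), with GC and length removed (-0.35, 0.0695) or with both (-0.35, 0.0955), and Pvalb changed sign with GC and length removed (0.053, and 0.053 with the block). In mdx/miR-133b-/- against mdx, GC and length removal left 55 calls instead of 162 and gave -0.58 for Actn3, -0.46 for Pvalb and -0.41 for Ckm, as it did with the block (0.10, 0.162 and 0.179, and 55 calls). Myh4 passed with the compared groups only (-0.56, 0.0466). Without mdx/miR-133b-/- 3 and 4 there were 20 calls, and Actn3 (-0.83), Pvalb (-0.70) and Ckm (-0.57) did not pass. In mdx/miR-133b-/- against Control, Pvalb did not pass with the block and with GC and length removed (-0.41, 0.0558). Median-centring factors gave 322 higher and 332 lower calls there, against 451 and 307. The difference of differences had 14 calls with relative log expression factors, 4 at a minimum mean of 100 and 5 with GC and length removed, against 8. The cause of these moves was not tested.

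Leaving out 1 library at a time gave, in mdx against Control, -0.73 to -0.47 for Myh4, -0.62 to -0.40 for Actn3, -0.35 to -0.12 for Pvalb, -0.53 to -0.36 for Ckm and 474 to 538 calls. In mdx/miR-133b-/- against mdx it gave -0.68 to -0.42 for Myh4, -1.02 to -0.80 for Actn3, -0.88 to -0.65 for Pvalb, -0.72 to -0.55 for Ckm and 49 to 197 calls (70 without mdx/miR-133b-/- 3, 49 without 4, and 71, 56 and 84 without mdx 1, 3 and 4). In miR-133b-/- against Control it gave -0.36 to 0.15 for Myh4 and -0.35 to 0.049 for Pvalb, positive without miR-133b-/- 2. For the difference of differences it gave 7 to 110 calls, -0.88 to -0.43 for Actn3 and -0.83 to -0.43 for Pvalb; 15 calls were made without mdx/miR-133b-/- 1. A smaller group by itself lowers the number of calls.

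Deviations of same-numbered libraries were weakly correlated over 24 pairs (-0.28 to 0.25), with 2 over 0.1, both between libraries numbered 2. Correlations this low do not show a pairing, and they cannot exclude one or a shared batch. The replicate block moved the calls from 550 to 541 in mdx against Control and from 162 to 120 in mdx/miR-133b-/- against mdx. Total depth is unknown, and the 4 genes are among the most read in the table, so the spread between libraries rather than counting limits them.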
